A study of Mus musculus with 18 samples.

Results

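The genes described here are 10 of the 55487 in the deposited tables: the Toll-like receptor genes Tlr1, Tlr2, Tlr4, Tlr6, Tlr7, Tlr9 and Tlr13, the co-receptor genes Cd14 and Ly96, and Myd88, the adaptor gene. They were chosen by symbol, and each symbol stood on 1 gene ID in both tables. The RNA came from BV2, a mouse microglial cell line that grows without limit, whose sample names carry either NC or BAK1-KD. Each line was sampled untreated, named control at 0 h, and after 12 h or 24 h of oxyhemoglobin, the oxygen-carrying protein of red cells. The labelled dose of 10 mM is high for a protein, so its unit is uncertain. The 6 groups were therefore NC at control, 12 h and 24 h and KD-labelled cells at control, 12 h and 24 h, with 3 libraries in each and 18 in all. The labels do not spell out NC or KD, nor say how the KD line was made or whether it is 1 clone. No untreated culture was kept for 12 h or 24 h, so time in culture and treatment cannot be told apart, and no sample tests the oxyhemoglobin for endotoxin, itself a ligand of the receptors studied. The labels do not say whether the 3 libraries of a group are separate cultures, and the p-values below reflect spread among libraries that may be technical. The series title names experimental subarachnoid hemorrhage, and the question for these genes is how the receptors that sense microbial and damage signals behave in cells exposed to a blood protein.

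Toll-like receptors recognise microbial molecules and, as reported for several of them, molecules released by damaged cells. TLR2 pairs with TLR1 or TLR6 at the cell surface to bind lipoproteins, TLR4 binds lipopolysaccharide there through CD14 and MD-2 (the product of Ly96), and TLR7, TLR9 and TLR13 sit in endosomes and bind single-stranded RNA, unmethylated CpG DNA and bacterial ribosomal RNA. MYD88 links all of these receptors to the IRAK kinases, TRAF6 and NF-kB, while TLR4 also signals through TRIF towards interferon genes. Microglia are the brain cells best known for using this system.

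Promoters are shown for Tlr2 and Tlr9, the receptor genes that rose with oxyhemoglobin in at least 1 line, and for Myd88, the shared adaptor. RefSeq promoter entries on GRCm38.p6 matched 6 of the 10 genes, namely Tlr1, Tlr2, Tlr6, Tlr9, Tlr13 and Myd88. Each sequence runs 5′ to 3′ over the 250 bases before the annotated start, and capitals mark the matches to the motifs searched. These sequences lie at chr3:83841609-83841858 on the minus strand (Tlr2), chr9:106222348-106222597 on the plus strand (Tlr9) and chr9:119340019-119340268 on the minus strand (Myd88). The start is that of the RefSeq entry, and the offsets below count from it. In GENCODE M21 Myd88 spans chr9:119335934-119341411, so its printed stretch lies inside the gene there. Tlr2 spans chr3:83836272-83841767 there, so its printed stretch overlaps the 5′ end of the gene.
Tlr2: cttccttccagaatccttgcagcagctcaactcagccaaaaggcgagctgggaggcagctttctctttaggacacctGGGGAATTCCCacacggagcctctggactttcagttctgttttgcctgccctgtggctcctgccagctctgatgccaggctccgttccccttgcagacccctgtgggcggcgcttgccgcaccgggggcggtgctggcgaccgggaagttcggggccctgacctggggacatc
Tlr9: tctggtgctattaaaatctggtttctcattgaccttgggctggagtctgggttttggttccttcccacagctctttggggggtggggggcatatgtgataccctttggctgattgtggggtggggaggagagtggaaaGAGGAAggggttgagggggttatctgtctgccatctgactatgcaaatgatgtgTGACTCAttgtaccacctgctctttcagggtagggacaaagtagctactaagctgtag
Myd88: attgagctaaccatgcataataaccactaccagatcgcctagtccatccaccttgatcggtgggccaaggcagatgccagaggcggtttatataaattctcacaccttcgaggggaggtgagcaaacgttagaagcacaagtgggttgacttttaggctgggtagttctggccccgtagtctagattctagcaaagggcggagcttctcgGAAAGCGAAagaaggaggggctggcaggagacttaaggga
In Tlr2 the capitals are overlapping matches to the NF-kB consensus at -173 to -163 from the start. In Tlr9 they are the PU.1 core GAGGAA at -112 to -107 and the AP-1 motif TGANTCA at -58 to -52. In Myd88 they are an interferon regulatory factor motif, GAAANNGAA, at -40 to -32. The C/EBP motif TTGCNNAA was the fifth searched, both strands were read in each case, and no matches of different motifs overlapped in these promoters. Of 32851 promoters of the same length, 3.9% held the NF-kB consensus, 23.3% the PU.1 core, 6.75% the AP-1 motif, 7.13% the interferon regulatory factor motif and 9.56% the C/EBP motif. The motif letters were settled after a first search of these promoters, and a match describes letters only.

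Library totals ran from 4361313 to 6008810 counts. Bak1, the gene named in the KD label, held 0 to 7 counts per NC library (25 in all) and 1 to 12 per KD-labelled library (39 in all), so the counts do not show it lower in the libraries labelled KD, and the line labels are used here only as names. The macrophage transcription factor gene Spi1 was present at 88.0 to 279 TPM, a level scaled by gene length and library. Trem2 was present at 13.6 to 49.9 TPM, Adgre1 at 3.82 to 29.6 and Tmem119 at 2.51 to 18.5. The microglial markers Aif1 (at most 7 counts per library) and P2ry12 (at most 3) were near 0. The defining neuronal genes Rbfox3, Snap25 and Syt1, the lymphocyte genes Cd3e and Nkg7 and the red cell genes Hba-a1 and Hbb-bs were all at 0 counts. Of the same lists, the B cell gene Cd79a (4 to 23 counts per library), the heme synthesis gene Alas2 (11 to 46) and the neuronal tubulin gene Tubb3 (4 to 49) were detected in every library. All 10 genes passed the filter on low counts, but Tlr1, Tlr7 and Ly96 reached its level of 2.02 CPM, the count scaled by library size, in only 12, 15 and 14 of the 18 libraries.

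Per length, on the TPM scale, Cd14 and Tlr13 were the most abundant of the 10 transcripts and Tlr7 and Tlr1 the least. The median level over 18 libraries was 449 TPM for Cd14, 313 for Tlr13, 146 for Tlr2, 83.2 for Tlr9 and 34.1 for Tlr4. It was 7.46 TPM for Myd88, 3.25 for Tlr6, 3.05 for Ly96, 0.801 for Tlr1 and 0.671 for Tlr7. The steps from Tlr2 to Tlr9, Tlr9 to Tlr4, Tlr4 to Myd88, Myd88 to Tlr6 and Ly96 to Tlr1 held in all 18 libraries, and Tlr13 exceeded Tlr2 in 17. The order of Cd14 and Tlr13 held in 12 libraries, that of Tlr6 and Ly96 in 12 and that of Tlr1 and Tlr7 in 10, so these neighbours did not stand apart beyond their spread. TPM rests on the deposited gene lengths, which were 2.98 times the merged exon length in GENCODE M21 for Tlr7, 1.86 times for Tlr1 and Myd88, 1.8 times for Tlr6 and 1.69 times for Ly96. The ranks of these low genes therefore depend on the gene model used.

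Endosomal Tlr13, which binds bacterial ribosomal RNA in mice, made up the largest share of receptor transcripts in every group. Over the 12 Tlr genes in the table, its mean share of summed Tlr TPM was 55.6% ± 1.62 (SD, n = 3) in NC controls, 40.2% ± 3.32 at 12 h and 44.0% ± 7.84 at 24 h. In KD-labelled cells it was 60.1% ± 2.33 at control, 53.4% ± 1.961 at 12 h and 57.2% ± 0.71 at 24 h. In NC cells the difference went mainly to Tlr2, with 25.4%, 35.2% and 29.8% at the 3 times, and to Tlr9, with 10.7%, 19.3% and 18.7%. In KD-labelled cells Tlr2 held 22.0%, 23.7% and 19.5% and Tlr9 11.9%, 17.6% and 16.9%. The summed level was 522 ± 88.6 TPM in NC controls, 687 ± 66.4 at 12 h and 450 ± 118 at 24 h, against 677 ± 112, 879 ± 65.1 and 533 ± 29.9 in KD-labelled cells. These shares were not tested, and a share falls where another gene of the sum is higher. TPM adds up to the same total in every library, so the summed level also depends on the other genes. The gene CT010467.2 held 17.4% to 21.5% of counts in NC controls. It held 13.1% to 17.2% at 12 h and 16.6% to 25.3% at 24 h. In KD-labelled libraries it held 13.8% to 21.0%, 12.9% to 15.4% and 14.2% to 20.4%. Its part in the summed Tlr level was not tested.

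**Figure D1:**
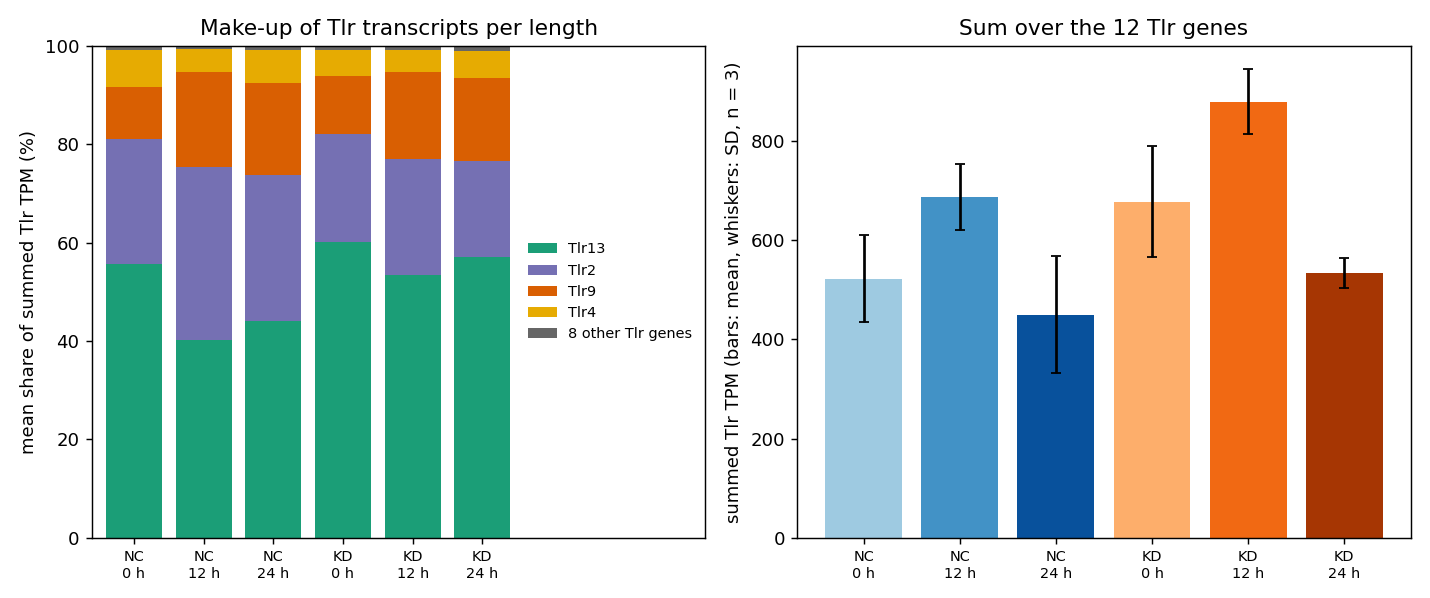
Left, the mean share of summed TPM (percent) held by each of Tlr13, Tlr2, Tlr9, Tlr4 and the 8 other Tlr genes in the 6 groups. Right, the summed TPM of the 12 Tlr genes, with bars for the mean and whiskers for the SD of 3 libraries: Tlr13 holds the largest block in every group, and the sum is highest at 12 h in both lines.

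With oxyhemoglobin, Cd14 rose in both lines at both times, Tlr9 rose in both lines at 12 h and in NC cells at 24 h, and Tlr2 rose in NC cells at 12 h. In the main fit, without library number as a block, no gene of the 10 was called lower against control in any of the 4 comparisons. In NC cells 3 of 10 genes were called at 12 h, where 12.2% of all 15996 genes tested were called in either direction, and 2 of 10 at 24 h, where 7.57% were. In KD-labelled cells 2 of 10 were called at 12 h (all genes 16%) and 1 of 10 at 24 h (all genes 9.59%). The median log2 fold change of the 10 was 0.24 and -0.13 in NC cells and 0.37 and 0.13 in KD-labelled cells at 12 h and 24 h, beside medians between -0.01 and 0.00 over all genes tested. Between 12 h and 24 h, 2 of 10 were called lower in NC cells (all genes 2.76%) and 2 of 10 in KD-labelled cells (all genes 4.28%). Within a line these comparisons share libraries, so their values are given side by side. With library number as a block, 2 of 10 were called lower against control in NC cells at 12 h and 1 at 24 h. In KD-labelled cells 1 was called lower at each time. In these comparisons, in that order, the block called 24.7%, 18.9%, 28.8% and 21.5% of all genes in either direction. Limma on log2(TPM + 1) called 1 lower, Tlr2 in KD-labelled cells at 24 h. In bulk RNA, more cells carrying a transcript and more transcript per cell cannot be told apart.

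**Figure D2:**
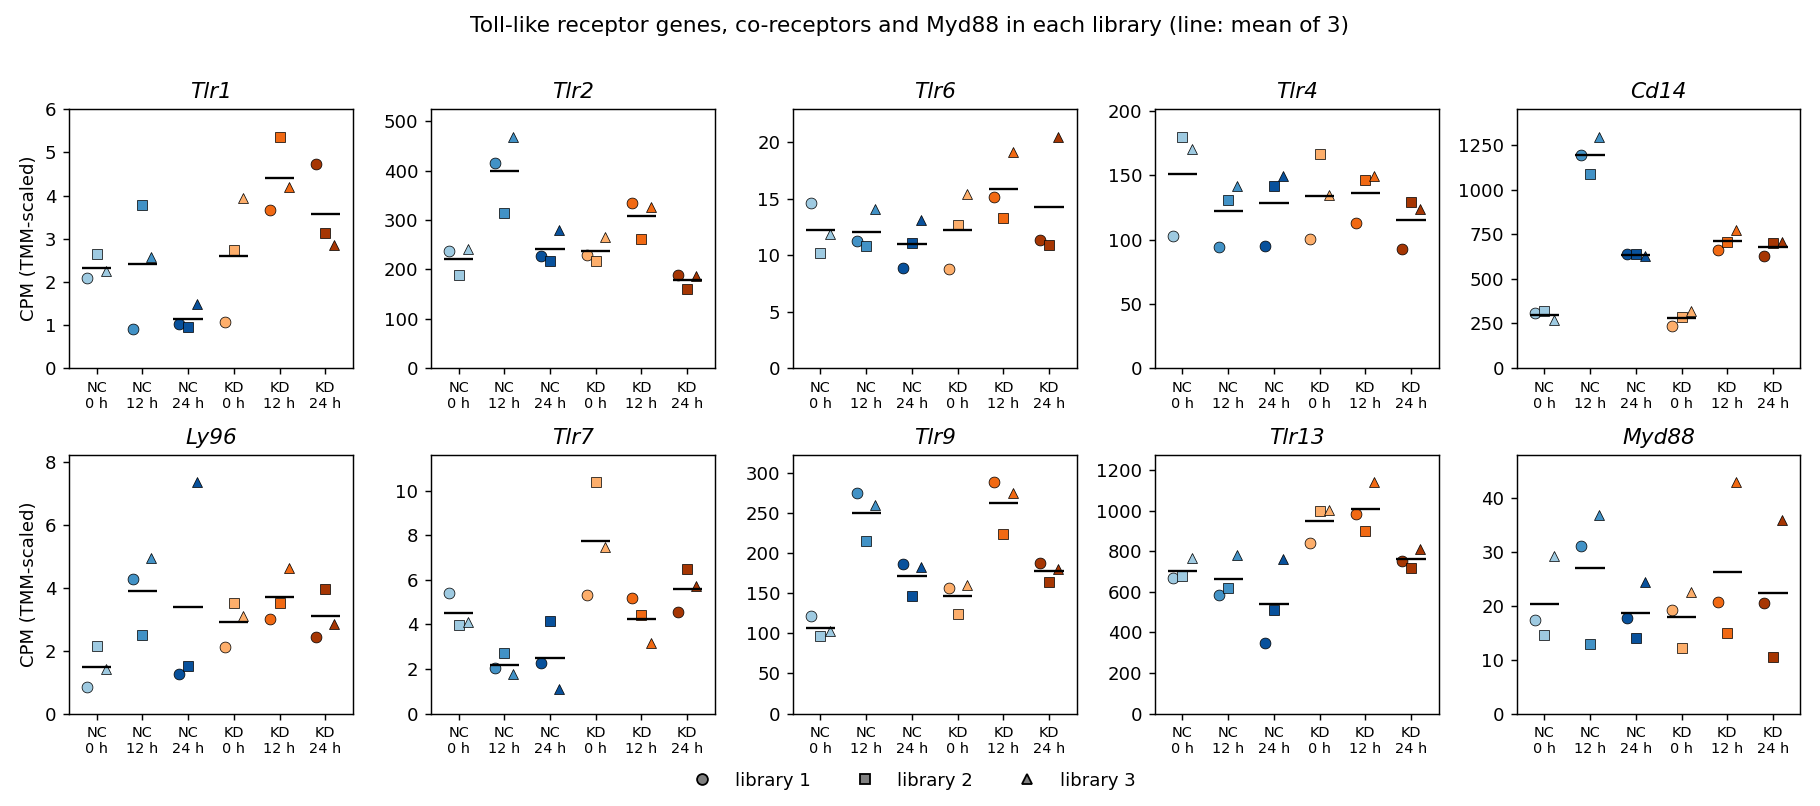
TMM-scaled CPM of each of the 10 genes (vertical axes, starting at 0) in each of the 18 libraries by group, with circles, squares and triangles for libraries 1, 2 and 3 and a line at the mean of 3. Cd14 and Tlr9 stand higher in every 12 h library than in every control library of the same line, while the groups overlap throughout in Tlr4 and Myd88.

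Cd14, the co-receptor that delivers lipopolysaccharide to TLR4 and MD-2, showed the largest increase of the 10. The gene has 1 exon, at chr18:36725067-36726798 on GRCm38. In NC libraries 1, 2 and 3 it stood at 306, 319 and 269.5 CPM at control, 1195, 1091 and 1297 at 12 h, then 639.8, 641 and 629 at 24 h. In KD-labelled libraries it stood at 238, 289 and 321 CPM at control, 662, 709.97 and 772 at 12 h, then 631, 699.7 and 707 at 24 h. Every treated library lay above every control library, and the NC 12 h libraries lay above all others. The log2 fold change from control in NC cells reached 2.00 ± 0.15 (SE) at 12 h (adjusted p = 2.63e-09), then 1.09 ± 0.15 at 24 h (adjusted p = 2.46e-05). In KD-labelled cells it was 1.34 ± 0.15 at 12 h (adjusted p = 6.44e-07) and 1.27 ± 0.15 at 24 h (adjusted p = 2.16e-06). From 12 h to 24 h Cd14 fell in NC cells, by 0.91 ± 0.14 on the log2 scale (adjusted p = 0.000678), while in KD-labelled cells the change was -0.07 ± 0.14 (adjusted p = 0.904).

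The partners of CD14 in the lipopolysaccharide receptor did not pass the test. Tlr4, the signalling receptor, stood at 103, 179.9 and 171 CPM in NC controls, 94.1, 131 and 142 at 12 h, then 95.2, 142 and 149 at 24 h. In KD-labelled libraries its values were 100.1, 167 and 134 CPM at control, 113, 146 and 149 at 12 h, then 92.5, 129.5 and 124 at 24 h. All groups overlapped, and library 1 was the lowest of its group in 6 of 6 groups. The log2 fold change in NC cells at 12 h was -0.30 ± 0.23 (adjusted p = 0.477), and with library number as a block it was -0.29 (adjusted p = 0.026). Ly96, which encodes MD-2, the subunit that holds the lipid, was sparse at 4 to 40 counts per library. Its log2 fold change in NC cells at 12 h was 1.36 ± 0.55 (adjusted p = 0.119), which passed with the block (1.36, adjusted p = 0.0344) and without NC 24 h library 3 (1.34, adjusted p = 0.039), whose 7.37 CPM was the highest of all. The ratio of Cd14 to Tlr4 on the TPM scale averaged 5.97 ± 2.15 (SD, n = 3) in NC controls, 28.4 ± 6.56 at 12 h and 14.6 ± 3.86 at 24 h, and 6.12 ± 1.06, 15.0 ± 1.49 and 16.9 ± 2.12 in KD-labelled cells.

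Tlr2, the shared subunit of the lipoprotein receptors, lies at chr3:83836272-83841767. It stood at 236, 188 and 241 CPM in NC controls, 416, 314 and 468 at 12 h, then 227, 217 and 279 at 24 h. KD-labelled libraries had 229.7, 218 and 265 CPM before treatment, 334, 262 and 326 at 12 h, then 189, 159.6 and 187 at 24 h. In NC cells the 12 h libraries lay above all control and 24 h libraries, and in KD-labelled cells the 24 h libraries lay below all others of that line. Tlr2 rose in NC cells at 12 h, by 0.85 ± 0.17 on the log2 scale (adjusted p = 0.00127), and its change at 24 h was 0.12 ± 0.17 (adjusted p = 0.775). In KD-labelled cells the changes were 0.37 ± 0.17 at 12 h (adjusted p = 0.152) and -0.41 ± 0.17 at 24 h (adjusted p = 0.146). With the block these passed at 0.37 (adjusted p = 0.00115) and -0.41 (adjusted p = 0.000488), and limma on log2(TPM + 1) also called both. On that TPM scale the median of all genes moved the same way, by 0.09 and -0.06.

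From 12 h to 24 h Tlr2 fell in both lines, by 0.78 ± 0.17 on the log2 scale in KD-labelled cells (adjusted p = 0.00692) and by 0.73 ± 0.17 in NC cells (adjusted p = 0.0194). The NC call was lost without NC 12 h library 1 (adjusted p = 0.0781) or 3 (0.123), without NC 24 h library 1 (0.0659) or 2 (0.0848), and when only the NC 12 h and 24 h groups were fitted (0.0621). On TPM the median of all genes itself moved between 12 h and 24 h, by -0.11 in NC and -0.16 in KD-labelled cells with limma on log2(TPM + 1).

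Tlr1 and Tlr6 encode the partners of TLR2 and lie near each other on chromosome 5, at 64924679-64933563 and 64952031-64960097. Tlr6 ranged from 8.75 to 20.5 CPM over the 18 libraries, with overlapping groups within each line, and its log2 fold changes against control lay between -0.14 and 0.37, none past the threshold. Tlr1 held 4 to 29 counts per library, and its changes against control ran from -1.003 ± 0.53 in NC cells at 24 h to 0.76 ± 0.44 in KD-labelled cells at 12 h, also without a call. The 2 transcripts share 454 stretches of 50 bases, 13.6% of those in Tlr1 and 12.3% of those in Tlr6. The sources used here do not say how reads matching more than 1 gene were counted, so the split between Tlr1 and Tlr6 is uncertain.

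Tlr9, the endosomal receptor for CpG DNA (chr9:106222598-106226883), was the receptor gene with the largest called increase. It stood at 122, 96.8 and 103 CPM in NC controls, 276, 216 and 260.2 at 12 h, then 187, 146 and 183 at 24 h. KD-labelled libraries had 156, 125 and 160.4 CPM before treatment, 289, 224 and 275 at 12 h, then 188, 164 and 179.8 at 24 h. In both lines every 12 h library exceeded every library at control and 24 h, and every 24 h library exceeded every control library. Tlr9 rose in NC cells by 1.23 ± 0.16 on the log2 scale at 12 h (adjusted p = 1.15e-05) and by 0.68 ± 0.16 at 24 h (adjusted p = 0.0083). In KD-labelled cells it rose by 0.83 ± 0.16 at 12 h (adjusted p = 0.000621), and its change at 24 h was 0.27 ± 0.16 (adjusted p = 0.352, or 0.28 and 0.0177 with the block).

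Between 12 h and 24 h the Tlr9 changes were -0.54 ± 0.16 in NC cells (adjusted p = 0.072) and -0.56 ± 0.16 in KD-labelled cells (adjusted p = 0.0441), so nearly equal sizes fell on either side of the threshold. The NC change passed with the block (adjusted p = 1.13e-05), with DESeq2 (0.0185), without NC control library 1 (0.044) and without NC 12 h library 2 (0.049). The KD call was lost in 7 of the 18 fits that leave out 1 library: without NC 12 h library 1 (adjusted p = 0.0523), control library 1 (0.0583), 12 h library 1 (0.171) or 3 (0.156), or 24 h library 1 (0.0784), 2 (0.135) or 3 (0.0912) of the KD-labelled cells. It was also lost in the fit of the compared groups alone (0.0517) and without the filter (0.0814).

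Tlr13 and Tlr7, the endosomal RNA sensors, differed from Tlr9 in that neither was called against control. Tlr13 (chrX:106143204-106160493) stood at 669, 680.3 and 767 CPM in NC controls, 587, 618 and 780.2 at 12 h, then 347, 512 and 761 at 24 h. The KD-labelled control libraries stood at 841, 998 and 1007 CPM, those of 12 h at 982, 899.8 and 1141, and those of 24 h at 754, 718 and 811. The NC 24 h libraries were the most spread of any group, with library 1 at less than any other library. The log2 change in NC cells at 24 h was -0.38 ± 0.20 (adjusted p = 0.315), -0.42 with the block (adjusted p = 0.0416) and -0.73 without NC 24 h library 3 (adjusted p = 0.022). Tlr7 held 6 to 68 counts per library, or 3.96 to 5.43 CPM in NC controls, 1.78 to 2.69 at 12 h and 1.10 to 4.14 at 24 h. In KD-labelled libraries it ranged from 5.34 to 10.4 CPM at control, 3.15 to 5.18 at 12 h and 4.55 to 6.49 at 24 h. Its changes at 12 h were -1.03 ± 0.41 in NC cells (adjusted p = 0.113) and -0.87 ± 0.36 in KD-labelled cells (adjusted p = 0.115), and with the block -1.05 (adjusted p = 0.0401) and -0.86 (adjusted p = 0.0455). Control and 12 h libraries did not overlap in either line.

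Myd88, the adaptor, was not called in any of the 12 comparisons. It ranged from 14.5 to 29.2 CPM in NC controls, 12.9 to 36.9 at 12 h and 13.9 to 24.5 at 24 h, and from 12.2 to 22.5, 15.0 to 42.9 and 10.5 to 36.0 CPM in KD-labelled cells. In 6 of 6 groups library 2 was the lowest and library 3 the highest, so most of its spread went with library number. The log2 changes at 12 h were 0.41 ± 0.46 in NC cells (adjusted p = 0.673) and 0.55 ± 0.47 in KD-labelled cells (adjusted p = 0.51, or 0.48 and 0.0495 with the block). Of its exon bases, 11.3% overlap Acaa1a on the opposite strand, and it is not stated whether counting used strand, so reads of the 2 genes may not be fully separated.

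Other genes went with library number too. Library 2 was the lowest of its group in 6 of 6 groups for Tlr2 and Tlr9, library 3 the highest in 6 of 6 for Tlr13, and library 1 the lowest in 5 of 6 for Ly96. What a number stands for is not stated in the labels. With the number as a block, 6 of 10 genes were called in NC cells at 12 h and 5 of 10 in KD-labelled cells at 12 h, against 3 and 2 without it, and 3 of 10 in KD-labelled cells at 24 h, against 1. The block raised the calls over all genes as well, to 24.7%, 28.8% and 21.5% in these 3 comparisons, from 12.2%, 16% and 9.59%.

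**Figure D3:**
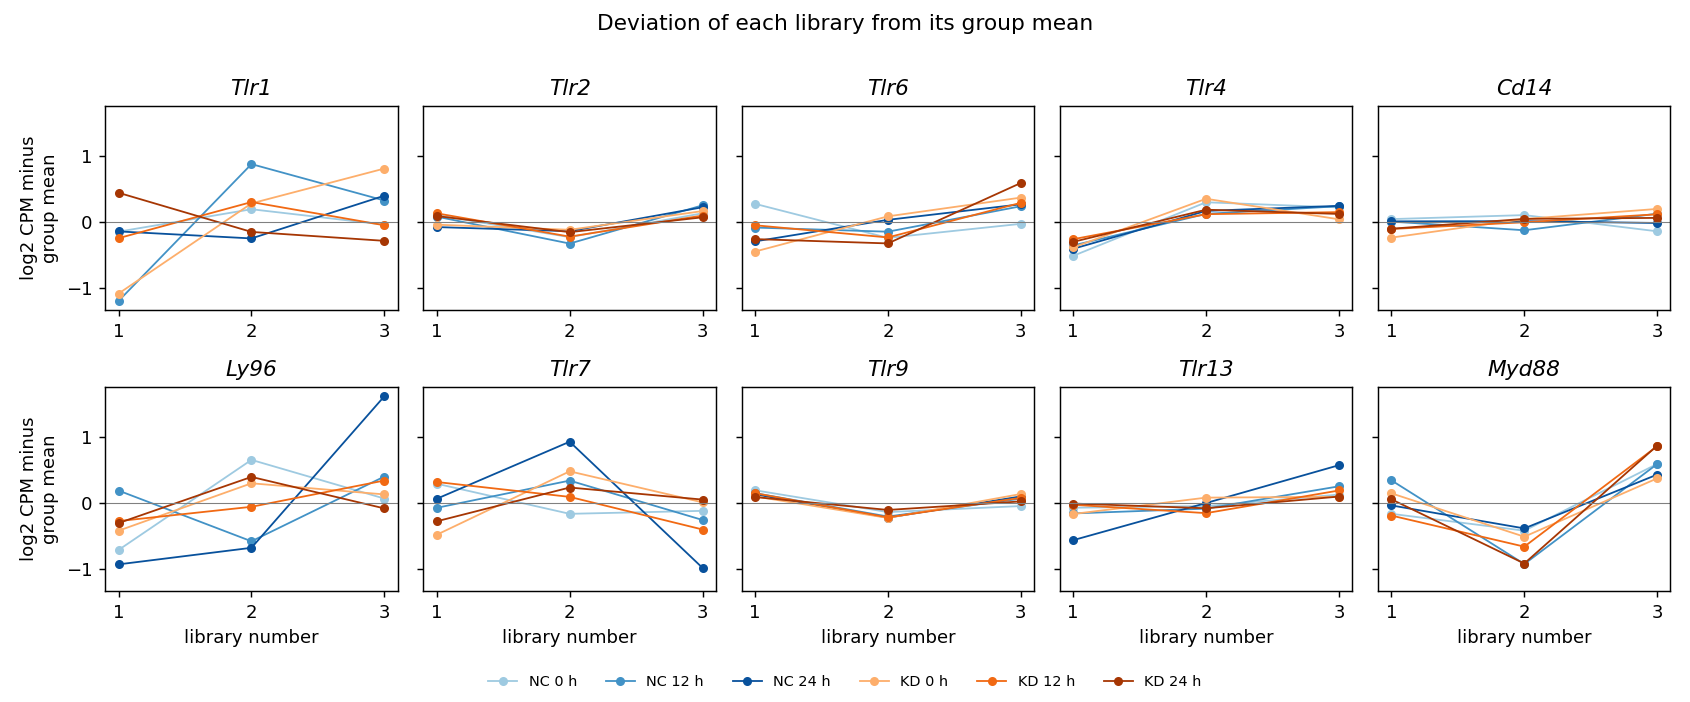
Log2 CPM of each library minus its group mean (vertical axes) for the 10 genes by library number (horizontal axes), where a line joins the 3 libraries of a group for the eye only and the numbers carry no order. In Myd88 library 2 is lowest and library 3 highest in 6 of 6 groups, and in Tlr4 library 1 is lowest in 6 of 6.

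**Figure D4:**
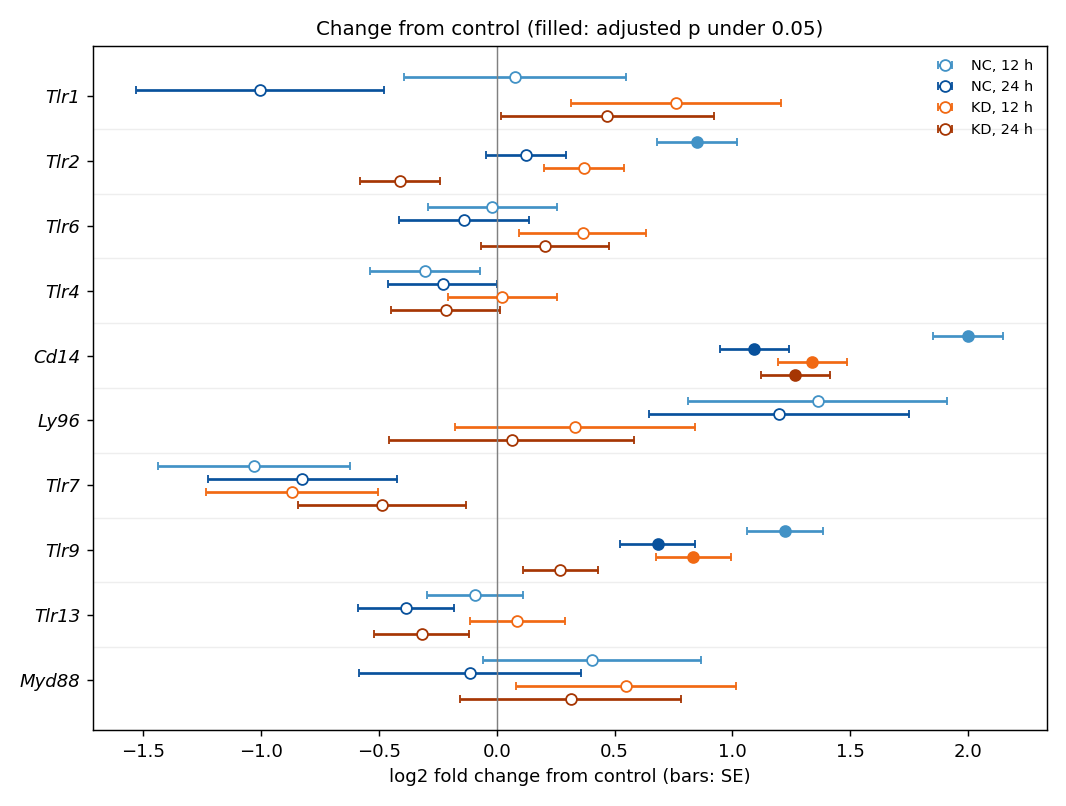
Log2 fold change from control (horizontal axis) for each of the 10 genes at 12 h and 24 h in NC (blue) and KD-labelled (orange) cells, with bars for the SE and filled points for adjusted p under 0.05. Cd14 is filled in all 4 comparisons, Tlr9 in 3 and Tlr2 in 1.

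Between the lines, Tlr13, Tlr7 and Tlr1 were higher in KD-labelled cells over all times, and Cd14 was lower in them at 12 h. Averaged over the 3 times, 3 of 10 genes were called, where 9.99% of all genes tested were. Tlr13 was higher by 0.51 ± 0.12 on the log2 scale (adjusted p = 0.00649), with KD-labelled libraries above all NC libraries at control and at 12 h and overlapping at 24 h. Tlr7 was higher by 0.96 ± 0.23 (adjusted p = 0.00732) and did not overlap at 12 h or 24 h, and this call held in all 18 fits that leave out 1 library and without the libraries numbered 2. The Tlr13 call also held in those 18 fits but was lost without the libraries numbered 2 (0.50, adjusted p = 0.0633). Tlr1 was higher by 0.87 ± 0.28 (adjusted p = 0.0458), a call lost in 15 of those 18 fits (adjusted p up to 0.108), without the libraries numbered 2 (0.129) and with limma on log2(TPM + 1) (0.0645). Among those 18 fits it stayed past the threshold only without NC 12 h library 2, KD control library 1 or KD 12 h library 1. With DESeq2 Cd14 was also called lower over all times (adjusted p = 0.0285), against -0.24 ± 0.08 (adjusted p = 0.0685) with edgeR. With limma on log2(TPM + 1) Tlr9 was called higher (0.30, adjusted p = 0.00667), against 0.19 ± 0.09 (adjusted p = 0.213) with edgeR. On that TPM scale the median difference of all genes was 0.07.

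Macrophage markers differed between the lines in the same direction as Tlr13 and Tlr7. Summed over 12 such genes, NC libraries ranged from 214 to 232 TPM at control, 303 to 318 at 12 h and 191 to 220.2 at 24 h. KD-labelled libraries ranged from 299 to 348, 385 to 457 and 248 to 322 TPM, above the NC range at each time. With limma on log2(TPM + 1) the median difference of all genes was itself 0.05, 0.10 and 0.07 at these times. Of the 4 neuronal markers only Tubb3 was detected, at 0.569 to 2.16 TPM in NC and 2.28 to 7.52 TPM in KD-labelled libraries. The part of either in the receptor differences was not tested.

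At single times few of the 10 genes were called. At 12 h Cd14 was lower in KD-labelled cells by a log2 difference of -0.74 ± 0.14 (adjusted p = 0.00754), 1 of 10 genes where 1.6% of all genes were called, and the libraries did not overlap. This call was lost without NC 12 h library 3 (adjusted p = 0.0583), when only the 12 h groups were fitted (0.0603) and with limma on log2(TPM + 1) (0.166), where the median difference of all genes was 0.10. With the block 3 of 10 were called at 12 h (all genes 10.9%), the others being Tlr13 (0.61, adjusted p = 0.00758, against 0.61 ± 0.20 and 0.163 without it) and Tlr2 (-0.37, adjusted p = 0.00364, against -0.38 ± 0.17 and 0.35). Without the filter on low counts Tlr13 also passed (adjusted p = 0.043). At control edgeR called 0 of 10, where 2.06% of all genes were called, with 3 at an unadjusted p under 0.05 and 0 called by DESeq2, while limma on log2(TPM + 1) called Tlr9 higher (0.51, adjusted p = 0.0184, against 0.46 ± 0.16 and 0.181 with edgeR). At 24 h edgeR called 0 of 10, where 1.39% were called, with 4 at an unadjusted p under 0.05 and 0 called by DESeq2 or limma. The largest of these were Tlr1 at 1.63 ± 0.51 (adjusted p = 0.127) and Tlr7 at 1.14 ± 0.40 (adjusted p = 0.193), and without NC 24 h library 3 Tlr13 passed (0.83, adjusted p = 0.039).

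**Figure D5:**
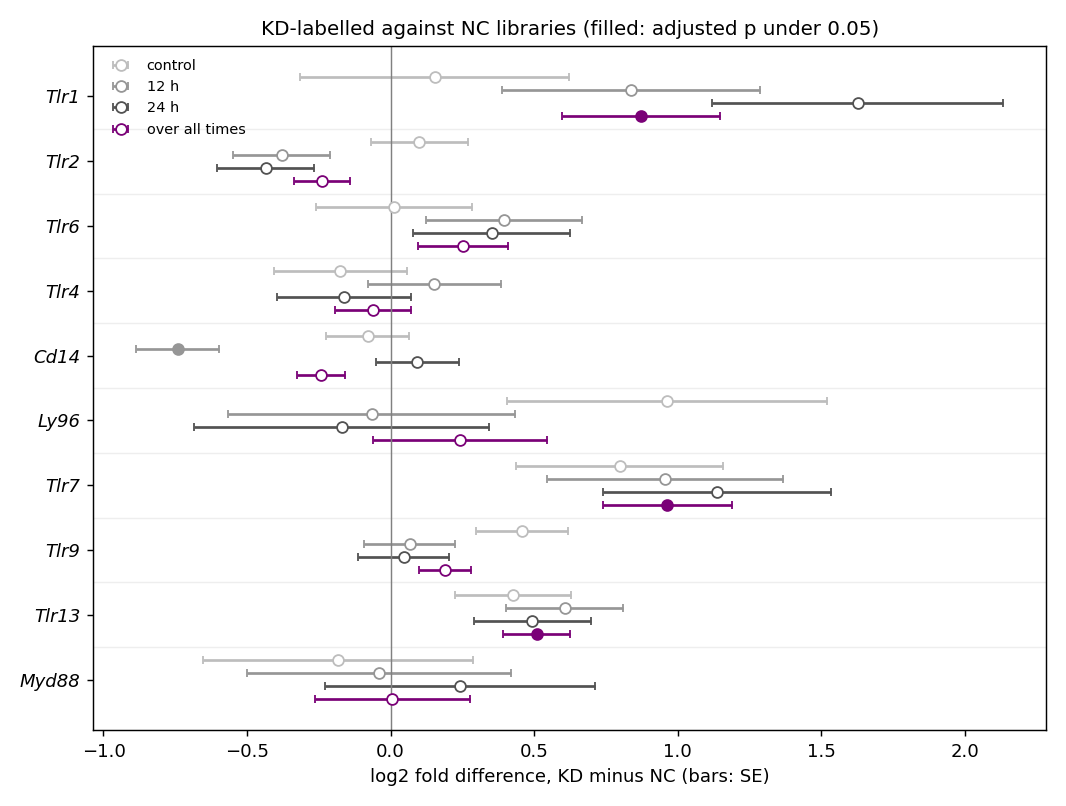
Log2 difference between KD-labelled and NC libraries (horizontal axis, KD minus NC) for the 10 genes at control, 12 h, 24 h (greys) and over all times (purple), with bars for the SE and filled points for adjusted p under 0.05. Tlr13, Tlr7 and Tlr1 are filled over all times, and Cd14 lies to the left and is filled at 12 h only.

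The test of whether the response itself differed between the lines called none of the 10 genes without a block, and it called Cd14 and Tlr2 at 12 h and Tlr2 at 24 h with one. At 12 h edgeR called 0 of 10 (all genes 0.075%), with 1 at an unadjusted p under 0.05 and 0 called by DESeq2 or limma. That gene was Cd14, whose increase was smaller in KD-labelled cells by -0.66 ± 0.20 on the log2 scale (adjusted p = 0.424). At 24 h edgeR called 0 of 10 (all genes 0.0313%), with 2 at an unadjusted p under 0.05, Tlr2 at -0.54 and Tlr1 at 1.47, and 0 called by DESeq2 or limma. With library number as a block, the differences were -0.66 for Cd14 (adjusted p = 0.00149) and -0.48 for Tlr2 (adjusted p = 0.0288) at 12 h, and -0.54 for Tlr2 at 24 h (adjusted p = 0.0156), where 2.07% and 1.21% of all genes were called. The deviations of same-numbered libraries from their group means correlated at 0.108 to 0.448 within a line. Over all pairs of the groups compared here, the correlations ran from 0.0703 to 0.467 at 12 h and from 0.0703 to 0.444 at 24 h. A limit of 0.1 was met within each line but not in every pair between the lines, and the lowest values lay close to it in both cases. Whether Cd14 and Tlr2 responded differently in the lines therefore depends on the choice to use the block.

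The remaining receptor genes were too sparse to test. Tlr8, an endosomal RNA sensor next to Tlr7 in the genome of the mouse, held 24 counts in all. Of these 22 fell in the 6 control libraries and 2 in the 12 treated ones, and the rate per count sequenced was 21.6 times as high in controls (exact 95% interval 5.32 to 190.0, counting error only). Within NC the counts were 8 and 1 (ratio 16.0, 2.15 to 710.0) and within KD-labelled cells 14 and 1 (ratio 27.1, 4.12 to 1140.0). Tlr3, the double-stranded RNA sensor, held 20 counts and Tlr5, the flagellin receptor, 5. Tlr11 and Tlr12 held 0 in the 18 libraries, which allows up to 0.0329 CPM.

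Among the other adaptors, 4 of 5 were tested. Over all genes, 6.69% were called higher and 5.55% lower in NC cells at 12 h and 4.66% and 2.91% at 24 h, and 7.93% and 8.06% in KD-labelled cells at 12 h and 5.5% and 4.09% at 24 h, and the counts of the pathway lists stand beside these shares. In NC cells at 12 h 2 adaptors rose, Pik3ap1 (BCAP) by 0.67 ± 0.16 on the log2 scale and Ticam1, which encodes TRIF, by 0.81 ± 0.22, and in KD-labelled cells Pik3ap1 rose by 0.79 ± 0.16. Ticam2, which encodes the bridge between TLR4 and TRIF, fell at 24 h in NC cells by 0.75 ± 0.17 and in KD-labelled cells by 0.86 ± 0.17. With the block 3 adaptors rose and 1 fell in NC cells at 12 h, 2 rose and 1 fell in KD-labelled cells at 12 h, and 1 rose and 1 fell in each line at 24 h. The block called 24.7% and 18.9% of all genes in NC cells at 12 h and 24 h. In KD-labelled cells it called 28.8% and 21.5%. List counts with the block stand beside these shares instead. Ticam2 was also lower in KD-labelled cells over all times, with a log2 difference of -0.70 ± 0.10 (adjusted p = 5.55e-05).

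Of 11 co-receptor, chaperone and trafficking genes tested, 1 rose and 1 fell in NC cells at both times, while in KD-labelled cells 1 rose and 3 fell at 12 h and 0 rose and 3 fell at 24 h. The NC counts, 2 of 11 called at each time, stand beside 12.2% and 7.57% over all genes. With the block 2 rose and 3 fell in NC cells at 12 h, 1 rose and 4 fell at 24 h, and 1 rose and 6 fell in KD-labelled cells at 24 h. Over all genes the block called 24.7%, 18.9% and 21.5% there. Hsp90b1, which encodes gp96, the chaperone that folds most Toll-like receptors, rose by 1.17 ± 0.16 in NC and by 0.88 ± 0.16 in KD-labelled cells at 12 h. Rab7b, a small GTPase of late endosomes, fell by 0.51 ± 0.16 and by 0.56 ± 0.16 at 12 h. Ly86, which encodes the MD-1 partner of the receptor relative CD180, fell in KD-labelled cells at 24 h by 1.77 ± 0.23. Cd180 was higher in KD-labelled cells over all times, by 0.49 ± 0.11 (adjusted p = 0.00667).

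The kinases, ubiquitin ligases and transcription factors below the receptors mostly did not pass. Of 22 tested, 1 rose and 0 fell at 12 h in each line, without the block a smaller share than over all genes. At 24 h 1 rose and 1 fell in NC and 0 rose and 2 fell in KD-labelled cells. With the block 6 rose and 3 fell in NC and 5 rose and 3 fell in KD-labelled cells at 12 h. These were larger shares than the 24.7% and 28.8% over all genes. At 24 h with the block 2 rose and 4 fell in NC and 0 rose and 4 fell in KD-labelled cells. Over all genes 18.9% and 21.5% were called there. The gene that rose at 12 h without the block was Ikbke, an IKK-related kinase of the interferon branch. It rose by 0.97 ± 0.15 in NC and by 0.90 ± 0.15 in KD-labelled cells. Traf6, the ubiquitin ligase below MYD88, fell in NC cells at 24 h by 0.78 ± 0.18, and Irf5 and Irf7 fell in KD-labelled cells at 24 h by 1.25 ± 0.28 and 1.09 ± 0.30. Irak2 was lower in KD-labelled cells over all times (-0.52 ± 0.14, adjusted p = 0.02).

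Of 13 brakes on the pathway tested, 5 rose and 0 fell at 12 h in each line, where 6.69% and 7.93% of all genes were called higher. With the block 7 rose in each line, and 1 fell in NC and 2 in KD-labelled cells. Over all genes the block called 24.7% and 28.8% in either direction. Zc3h12a, which encodes the mRNA-cleaving regnase-1, rose by 2.45 ± 0.22 in NC and by 1.98 ± 0.22 in KD-labelled cells. Tnfaip3, which encodes the ubiquitin-editing A20, rose by 1.22 ± 0.24 and by 2.23 ± 0.25, and its partner gene Tnip1 by 1.15 ± 0.28 and by 1.01 ± 0.27. At 24 h 2 rose and 1 fell in each line. Over all genes, 4.66% were called higher and 2.91% lower in NC, and 5.5% and 4.09% in KD-labelled cells. The gene that fell was Trafd1, by 0.999 ± 0.24 in NC and by 1.43 ± 0.24 in KD-labelled cells. With the block 4 rose and 1 fell in NC and 6 rose and 4 fell in KD-labelled cells at 24 h. Over all genes the block called 18.9% and 21.5% there. Between the lines over all times, 1 of the 13 was lower and 1 higher in KD-labelled cells, where 9.99% of all genes were called. Sigirr, an inhibitory receptor, was lower (-0.97 ± 0.22, adjusted p = 0.00524) and Il1rl1 was higher (0.74 ± 0.22, adjusted p = 0.0363).

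Response genes commonly read for the MYD88 branch and for the TRIF and interferon branch are given side by side, with no test between the lists. Of 10 MYD88-branch genes tested, 8 rose and 0 fell against control at 12 h and at 24 h in both lines, where 4.66% to 7.93% of all genes were called higher, with a median log2 change of 3.05 in NC cells at 12 h beside -0.01 over all genes. Il1b rose by 7.84 ± 0.37 and Ptgs2, the prostaglandin synthase gene, by 3.64 ± 0.18 there. From 12 h to 24 h 3 of the 10 fell in each line. Over all genes, 1.13% were called lower in NC and 1.46% in KD-labelled cells. Among the 3, Il1b fell by 2.27 ± 0.25 in NC and by 3.12 ± 0.26 in KD-labelled cells. With the block the count in KD-labelled cells was 1 risen and 4 fallen, beside 12.3% of all genes called in either direction. Of 11 interferon-branch genes tested, 4 rose and 0 fell in NC cells at 12 h, but 1 rose and 5 fell at 24 h. In KD-labelled cells 2 rose and 3 fell at 12 h, and 0 rose and 9 fell at 24 h. From 12 h to 24 h 8 of the 11 fell in NC and 6 in KD-labelled cells, beside 1.13% and 1.46% of all genes called lower. Isg15, an antiviral ubiquitin-like modifier, rose by 2.16 ± 0.19 in NC cells at 12 h and was lower by 2.49 ± 0.19 at 24 h than at 12 h. These genes respond to many inputs, and which receptor, if any, they followed was not tested.

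For the 7 genes with a mean of at least 5 CPM, the 3 genes most alike in log2 CPM over the 18 libraries were found among 10805 candidates. The libraries share their 6 groups and their library numbers, so Pearson's r is a description of shared pattern only. For Cd14 these were Il1rn (0.95), Sqor (0.95) and Ptgs2 (0.95), for Tlr9 Sdf2l1 (0.98), Marcksl1 (0.97) and Tnfrsf1b (0.97), and for Tlr2 Bst2 (0.92), 2900097C17Rik (0.91) and N4bp1 (0.91). For Tlr13 they were Cers6 (0.93), Naa20 (0.91) and Cd180 (0.89), for Tlr4 they included Pnrc2 (0.92) and Klhl15 (0.90), for Tlr6 Gm20605 (0.83), Gm14253 (0.80) and Sec24c (0.80), and for Myd88 Rack1 (0.96), Slc25a3 (0.94) and Mybbp1a (0.93).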

How the data were processed

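RNA libraries from 18 BV2 samples, 3 per group, were grouped and numbered by their titles. The deposited tables hold read counts per gene, whole numbers that were not normalized, and TPM computed by the authors from counts and a deposited gene length, per the file headers. Per the submitters' processing notes, bcl2fastq, HISAT2 2.2.0, featureCounts, DESeq2 and the GRCm38 build were used. The main test was edgeR's quasi-likelihood fit (version 4.0.16, R 4.3.3; TMM factors, filterByExpr with minimum count 10, 1 mean per group, all 18 libraries, robust fit), adjusted by Benjamini-Hochberg over 15996 genes at 0.05, in 12 comparisons: 2 times against control and each other within each line, the lines at each time and over all times, and the difference in response. CPM values are TMM-scaled. The procedure was run on simulated counts drawn without an effect of library number, so that run does not bear on the choice of block.

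Alternatives were RLE factors, no filter, DESeq2 1.42.0, library number as a block, the compared groups alone, limma 3.58.1 on log2(TPM + 1) or log2(TPM + 0.1), and libraries left out. Same-numbered libraries deviated together, with every pair's correlation over 0.1, in the 6 time comparisons and between the lines at 12 h, so the block is given there where it changes a call of the 10 genes or moves a printed count by over 1.5 times. Named genes were the 10 members, up to 4 called genes of each pathway list with the lowest adjusted p, of which some are printed, and the 3 most similar genes; some named by these rules are not reported here. Members and lists were chosen with earlier results of these data known. Gene positions came from GENCODE M21 and promoter positions from RefSeq.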

Additional observations from a re-analysis of the deposited data

How the results depend on the processing

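Of the calls for single genes of the 10, none changed direction where it was past the threshold, and RLE factors changed none of the 120 calls, 10 genes in 12 comparisons. The replicate block made 23 calls that the fit without it did not make and lost none: it called 6 of 10 in NC cells at 12 h, 5 and 3 in KD-labelled cells at 12 h and 24 h, 1, 3 and 4 between the lines at control, 12 h and 24 h, 6 over all times, and 2 and 1 in the differences in response at 12 h and 24 h. Between the lines at 24 h the 4 were Tlr1, Tlr2, Tlr7 and Tlr13. The block also raised calls over all genes, for example from 12.2% to 24.7% in NC cells at 12 h and from 7.57% to 18.9% at 24 h, and moved 43 of the 84 counts of the pathway lists by over 1.5 times. In KD-labelled cells it called 28.8% and 21.5% of all genes at 12 h and 24 h. Between the lines it called 9.35%, 10.9% and 9.0% at control, 12 h and 24 h, and 24.4% over all times. Without it these were 2.06%, 1.6%, 1.39% and 9.99%. In the differences in response it called 2.07% and 1.21%. The pairs did not all pass 0.1 between the lines at control (lowest 0.0703) or at 24 h (0.0946), so the numbers are treated only as a label there. The lowest value within a line, 0.108, was close to these. With the compared groups alone the number called from 12 h to 24 h was 1 in NC and 1 in KD-labelled cells, and 0 between the lines at 12 h. With limma on log2(TPM + 1), with or without a filter, or log2(TPM + 0.1), it was 2 in KD-labelled cells at 24 h, and 1 and 0 between the lines at control and 12 h. Without the filter it was 1 from 12 h to 24 h in KD-labelled cells and 2 between the lines at 12 h, and without the libraries numbered 2 it was 1 over all times. Leaving out 1 library at a time gave 1 to 3 from 12 h to 24 h in NC and 1 to 2 in KD-labelled cells, and 0 to 1 between the lines at 12 h and at 24 h. Where scaling differed, the share of higher calls over all genes differed too: on log2(TPM + 1) it was 18% against 59.2% in the edgeR fit from 12 h to 24 h in NC cells and 34.6% against 65.8% in KD-labelled cells, 42.3% against 61.5% in NC cells at 24 h, 61.4% against 49.6% and 45.1% against 57.4% in KD-labelled cells at 12 h and 24 h, 47.7% against 37%, 53.6% against 31.2% and 61.5% against 33.6% between the lines at control, 12 h and 24 h, and 63.8% against 40.2% over all times. Tlr1, Tlr7 and Ly96, at 4 to 68 counts per library, are limited by depth. The causes were not tested.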
